A study of Mus musculus with 11 samples.

Results

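The genes described here are 6 transcription factors of the Müllerian duct, Pax8, Pax2, Sox17, Sox3, Emx2 and Lhx1, taken by symbol from a table of 18305 mouse genes. The Müllerian duct is the embryonic tube that becomes the oviduct, the uterus and the upper vagina, whereas the ovarian surface epithelium (OSE) is the mesothelium-like layer that covers the ovary. Pax2 and Pax8 are paired-domain factors that specify the duct, Lhx1 (a LIM homeobox factor) and Emx2 (a homeobox factor) are needed for it to form, Sox17 is an HMG-box factor of female tract epithelium and of blood vessels, and Sox3 is an X-linked HMG-box factor best known from neural progenitors and gonads. In the adult, Pax8 marks the secretory cells of the oviduct and is used to recognise high-grade serous ovarian carcinoma (HG-SOC).

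Bulk RNA of 27 libraries was read by CEL-Seq2, which tags transcripts near their 3′ end. Wild-type C57BL/6 females gave 3 oviduct tissue and 3 OSE tissue libraries. From the same strain came 3 libraries of oviductal organoids, while OSE organoids gave 2. An organoid is a culture of epithelial cells that grows as a hollow sphere in a basement membrane gel, and each line came from pooled mice. Both kinds of organoid grew in medium that held WNT and estrogen. A further 3 libraries came from oviductal organoids of mice that express Cas9 and GFP in all tissues (Cas9-GFP). The TBP clones are 3 libraries, labelled clones 1 to 3, of such organoids in which CRISPR-Cas9 was aimed at Trp53 and Brca1, among other targets, and each clone was picked after selection with Nutlin-3a, which favours cells without working p53. The labels do not say that the 3 come from separate editing events, and from the study's account of its clones some may share a clone, so they are not known to be independent. TBP tumors (6 libraries) grew from TBP clones transplanted into immunodeficient mice and hold host cells. Tumor-derived organoids, kept in Nutlin-3a, gave the libraries T1-mes and T3-mes, which mixed epithelial with fibroblast-like growth, and T2-epi and T4-epi, which looked epithelial. T1-mes and T2-epi came from adjacent tumors of the same mouse, so they do not come from separate animals.

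Total counts per library ran from 825025 to 1561178 in oviduct tissue, 739248 to 1704646 in OSE tissue, 1455037 to 2472821 in oviductal organoids, 1571761 to 2165162 in OSE organoids, 600579 to 1038141 in Cas9-GFP organoids, 82239 to 4531767 in TBP clones, 1995230 to 2051891 in tumor-derived organoids and 936348 to 3083507 in tumors. TBP clone 1 (82239 counts) was the shallowest, and a count of 0 there allows up to 34 CPM (counts scaled to a common library size), against 5.21 CPM or less in every other library. Levels are CPM scaled by the TMM factors of edgeR, and a group's value is its mean ± SD. The deposited counts are reads and not molecules, so limits and intervals cover counting error only. The labels do not say which libraries share animals, so p-values measure the spread between these libraries. Trp53 had 0, 1 and 22 counts in the 3 clones (1.81 ± 2.69 CPM) and 49.2 ± 13.3 CPM in Cas9-GFP organoids, and it had 18.2 to 56.7 CPM in the 6 tumors. The 3′ tag lies away from the edited exon, so these counts do not check the edit itself.

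The tissue libraries were not pure epithelium. Oviduct tissue held smooth muscle markers at 5720 to 7044 CPM in sum (6 genes) and fibroblast markers at 4184 to 7448 CPM (8 genes). OSE tissue held granulosa and steroidogenic markers at 9870 to 12173 CPM (10 genes) and markers of OSE and mesothelium at 876 to 1130 CPM (8 genes), while its epithelial markers (8 genes, keratins and claudins among them) summed to 368 to 447 CPM against 1736 to 2217 CPM in oviduct tissue. In bulk RNA, fewer cells of a type and less RNA per cell cannot be told apart. OSE organoids 2 went against its label in part. Ovgp1, the oviduct glycoprotein of secretory cells, reached 3270 CPM there and 18.8 CPM in the other line, and results for OSE organoids are given with and without it where the call or the value moved.

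By GENCODE vM21 on GRCm38, Pax8 lies on the minus strand of chromosome 2 (chr2:24420560-24475599), Sox17 on the minus strand of chromosome 1 (chr1:4490931-4497354) and Sox3 on the minus strand of the X chromosome (chrX:60891366-60893430). Pax2 (chr19:44756045-44837871) and Emx2 (chr19:59458372-59465357) are both on the plus strand of chromosome 19, and Lhx1 is on the minus strand of chromosome 11 (chr11:84518284-84525535). All 6 are protein coding. Emx2 shares 264 bases at its start with the antisense gene Emx2os, and the authors counted reads by strand.

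RefSeq windows of the 250 bases before the transcription start (GRCm38.p6) were found for 4 of the 6 genes, Pax8, Pax2, Emx2 and Lhx1. The window of Pax8 and, of 3 for Pax2, the one nearest to the GENCODE start are shown, 5′ to 3′ on the gene's own strand, because Pax8 was read in every OSE and Cas9-GFP organoid library and its relative Pax2 in none of them. Capitals mark the CCAAT box, searched as CCAAT and its reverse ATTGG.
Pax8, minus strand, chr2:24475600-24475849: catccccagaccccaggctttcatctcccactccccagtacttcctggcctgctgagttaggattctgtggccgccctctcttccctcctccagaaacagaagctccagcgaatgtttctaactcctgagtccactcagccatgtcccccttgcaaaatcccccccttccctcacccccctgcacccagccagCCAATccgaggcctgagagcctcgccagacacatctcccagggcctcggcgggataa
Pax2, plus strand, chr19:44755502-44755751: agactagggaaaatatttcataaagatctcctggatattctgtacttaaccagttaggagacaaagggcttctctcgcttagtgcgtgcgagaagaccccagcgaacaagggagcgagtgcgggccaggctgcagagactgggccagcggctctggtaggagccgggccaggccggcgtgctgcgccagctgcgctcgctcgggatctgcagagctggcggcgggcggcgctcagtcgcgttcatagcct
The Pax8 window has 1 CCAAT box, which begins 57 bases before the start, and the Pax2 window has none, where 33.8% of all 32851 windows in the table hold the box on either strand. The core that Sox factors bind, searched as ACAAT and its reverse ATTGT, is in 27.7% of all windows and in none of the windows of Pax8, Pax2, Emx2 and Lhx1. Emx2 and Lhx1, which was read once, each have 1 CCAAT box too (21 and 68 bases before the RefSeq start). Both of these windows overlap an untranslated region annotated by GENCODE. That of Emx2 (chr19:59458440-59458689) lies inside the gene as GENCODE places it, so its box is not upstream of the GENCODE start. These are matches of letters and not measured sites.

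The first comparison asks how the factors are distributed between the oviduct, which comes from the duct, and the OSE, which does not. All 5 factors that could be tested were higher in oviduct tissue (51.2% of the 8787 genes tested differed at an adjusted p below 0.05). The groups did not overlap for any of the 5 factors, and the share of all genes without overlap was not counted. Sox17 had 825, 734 and 756 CPM in oviduct tissue and 10.2, 11.7 and 9.94 CPM in OSE tissue, a log2 difference of 6.18 (SE 0.20, edgeR adjusted p = 3.40e-11). Sox3 had 286, 269 and 390 CPM in the oviduct and no count in any OSE tissue library, which makes it at least 407-fold higher in the oviduct with a floor of 3 counts over the group (edgeR adjusted p = 9.18e-10). Neither Sox gene came near its oviduct level in any OSE tissue library. Pax8 had 183, 158 and 197 CPM in the oviduct and 0.85, 3.52 and 2.09 CPM in OSE tissue, a log2 difference of 6.38 (SE 0.29, edgeR adjusted p = 3.95e-10). Pax2 had 33, 15 and 22 counts in oviduct tissue and 1, 0 and 2 in OSE tissue, a ratio of 31.7 (exact 95% counting interval 10.4 to 158). Emx2 differed least, with 66.5, 56.2 and 75.2 CPM against 23.9, 34.0 and 24.1 CPM (log2 difference 1.30, SE 0.22, edgeR adjusted p = 0.000198). OSE tissue therefore had Emx2 RNA in every library while its Sox3 was at 0. Per 1000 CPM of epithelial markers, Emx2 was 25.4 to 43.4 CPM in oviduct tissue and 61.1 to 76.1 CPM in OSE tissue. On this scale Emx2 was thus lower in the oviduct, whereas Pax8, Pax2, Sox17 and Sox3 were still higher in every oviduct tissue library. Epithelial, ciliated and smooth muscle markers were also higher in oviduct tissue (8 of 8, 5 of 5 and 6 of 6 genes tested), all 10 granulosa and steroidogenic markers were lower, and the part of these differences in the factors' levels was not tested.

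**Figure D1:**
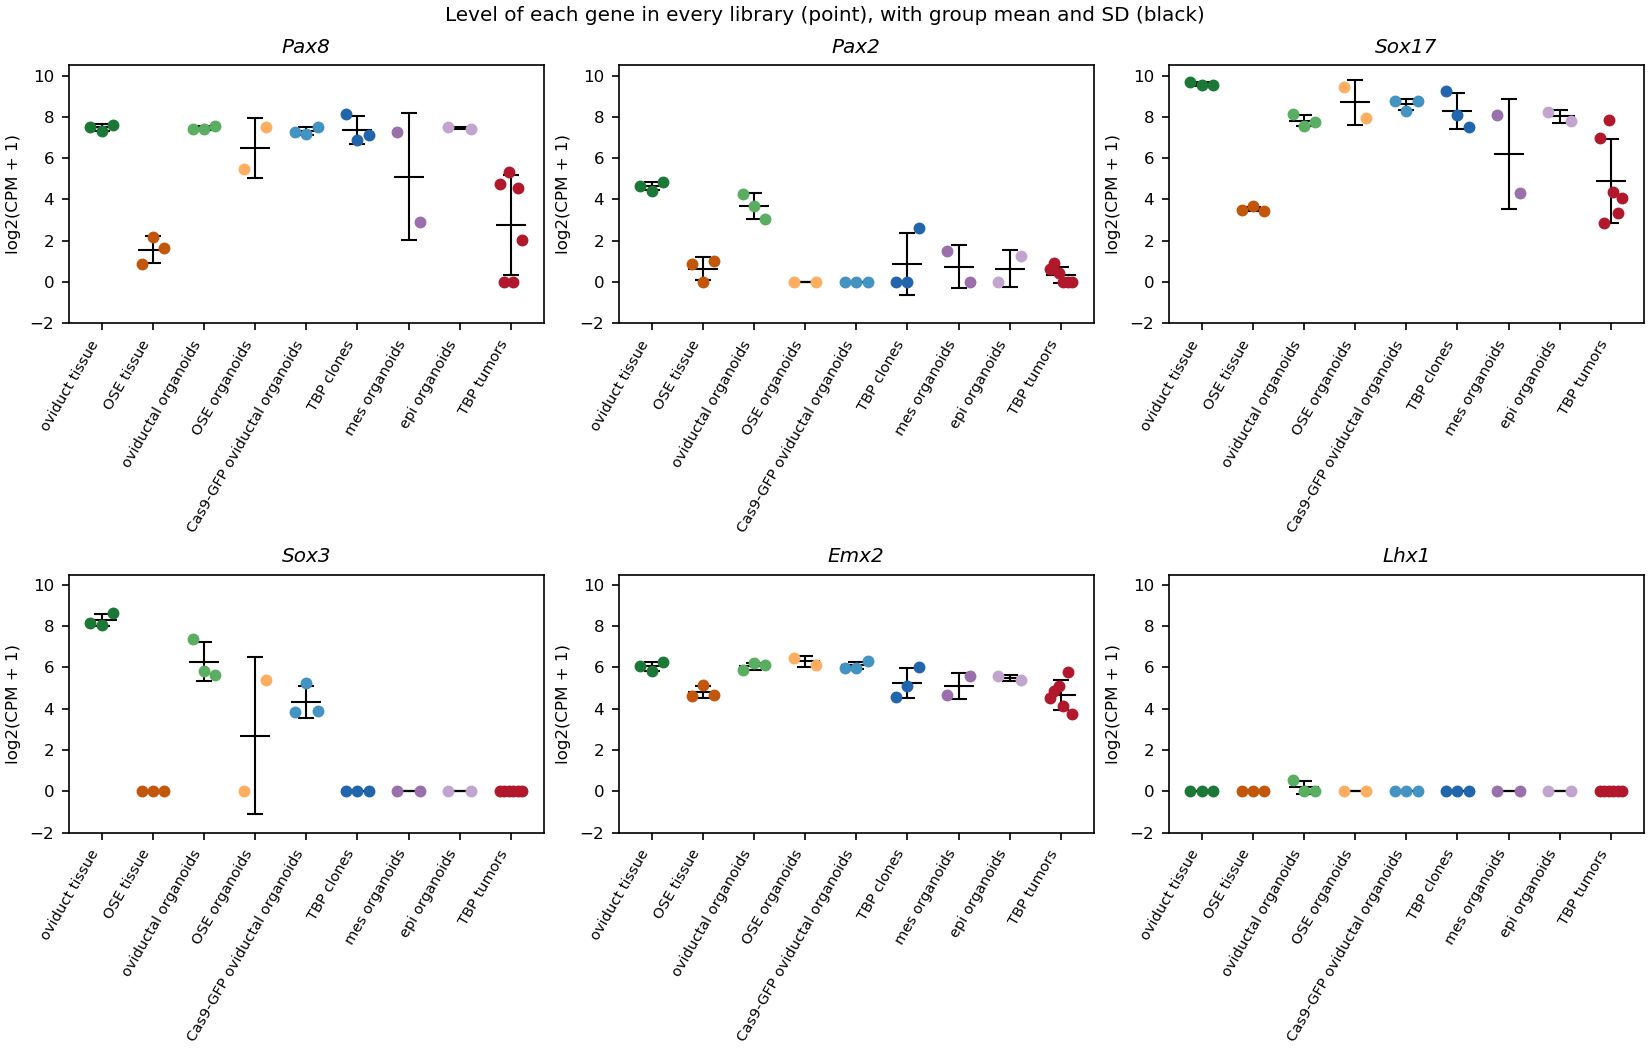
Each panel plots log2(CPM + 1) of 1 gene in every library (points, 27 in all), with the group mean and SD in black, for the 9 groups on the horizontal axis. Sox3 is at 0 in every TBP clone, tumor-derived organoid and tumor, Emx2 stays between 12.2 and 88.2 CPM in all 27 libraries, and Lhx1 has 1 count in all.

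Lhx1 was read once in the whole table, in oviductal organoids 1 (0.47 CPM), and was at 0 in the other 26 libraries. The count of 0 allows up to 0.26 CPM over the 6 tumors and up to 1.17 CPM over the Cas9-GFP organoids. At 1 count it did not pass the filter on low counts and was not tested. Without the filter it entered 4 comparisons and passed in none (lowest edgeR adjusted p = 0.581, lowest unadjusted p = 0.453).

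Oviductal organoids were compared with the tissue they came from to see which factors kept their bulk level in culture. Of the 5 factors tested, Sox17 and Sox3 fell and none rose, where 42.9% of 9477 genes differed. Sox17 had 277, 188 and 216 CPM in the organoids, below all 3 tissue libraries (fell by 1.75 on the log2 scale, SE 0.18, edgeR adjusted p = 1.17e-05). Sox3 had 164, 54.8 and 49.2 CPM, also below every tissue library (fell by 1.78 on the log2 scale, SE 0.38, edgeR adjusted p = 0.00236). Both genes remained far above their OSE tissue levels. Pax8 had 172, 167 and 189 CPM in organoids, inside the range of the tissue (log2 difference -0.02, SE 0.17). Emx2 likewise had 57, 71.9 and 67.2 CPM (log2 difference -0.01, SE 0.21). Pax2 had 18.4, 12.0 and 7.32 CPM, below the 20.6 to 27.6 CPM of the tissue, but the difference of -0.89 (SE 0.37) did not pass (edgeR adjusted p = 0.0699). Without oviductal organoids 1, the Pax2 difference was -1.31 (edgeR adjusted p = 0.0140). When all 27 libraries shared a single estimate of the spread, neither Sox gene passed (edgeR adjusted p = 0.177 for Sox17 and 0.125 for Sox3). In the same comparison, the ciliated markers summed to 711 to 1198 CPM in tissue and 74.5 to 155 CPM in organoids. Ovgp1 fell by 2.39 on the log2 scale (SE 0.25, edgeR adjusted p = 1.31e-05). Epithelial markers summed to 1736 to 2217 CPM in tissue and 4705 to 6363 CPM in organoids, where 6 of 8 were higher. All 7 fibroblast and all 6 smooth muscle markers tested were lower. Per 1000 CPM of epithelial markers, Pax8 was 71.2 to 113 CPM in tissue and 28.7 to 36.5 CPM in organoids. Emx2 was 25.4 to 43.4 CPM and 10.6 to 12.4 CPM on this scale. The part of these shifts in the levels of the factors was not tested.

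OSE organoids differed from OSE tissue in the other direction. All 3 factors tested, Sox17, Pax8 and Emx2, were higher in the organoids (33.1% of 10232 genes differed). Sox17 had 707 and 242 CPM in the 2 lines, against at most 11.7 CPM in OSE tissue (log2 difference 5.50, SE 0.50, edgeR adjusted p = 0.000708). The gain was present in each line, at 6.09 (SE 0.26) with OSE organoids 1 alone and 4.58 (SE 0.26) with OSE organoids 2 alone, the lone library being assumed to vary like the tissue. Pax8 had 42.9 and 181 CPM (log2 difference 5.76, SE 0.78, edgeR adjusted p = 0.00255), and the difference was 4.36 (SE 0.50) with OSE organoids 1 alone. Emx2 had 88.2 and 67.4 CPM, the highest group mean of this gene in the series (77.8 ± 14.7 CPM), and was 1.54 higher than in OSE tissue on the log2 scale (SE 0.29, edgeR adjusted p = 0.00762, and 0.0507 without OSE tissue replicate 3). Emx2os, its antisense partner, was higher too (log2 difference 2.53, SE 0.53, edgeR adjusted p = 0.0112), at 9.04 and 17.4 CPM in the 2 lines. With OSE organoids 1 alone, Emx2 was 1.75 higher (SE 0.27) and Emx2os did not pass the filter on low counts. Sox3 divided the lines, with no count in OSE organoids 1 and 79 counts (40.4 CPM) in OSE organoids 2, the line that held Ovgp1. Pax2 had no count in either line, which allows up to 0.91 CPM over both. Epithelial markers summed to 5730 and 7015 CPM in the OSE organoids against at most 447 CPM in OSE tissue, and all 7 tested were higher. All 10 granulosa and steroidogenic markers were lower. Of 7 OSE and mesothelium markers tested, 4 were lower and 1, Msln, was higher. Per 1000 CPM of epithelial markers, Sox17 was 123 and 34.5 CPM in OSE organoids 1 and 2 and 26.2 to 27.0 CPM in tissue. Pax8 was 7.50 and 25.9 CPM on this scale against 2.18 to 7.87 CPM in tissue. Emx2 was 15.4 and 9.61 CPM against 61.1 to 76.1 CPM, so it was lower in the organoids on this scale. The part of the marker shifts in the rise of Sox17, Pax8 and Emx2 was not tested.

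Because both origins were sampled as tissue and as organoids, the difference between oviduct and OSE could itself be compared between the 2 settings. That difference was smaller, or turned, in organoids for 4 of 5 factors (11.7% of 11458 genes passed this interaction test). For Sox17 the log2 difference between oviduct and OSE was 6.18 in tissue and -1.05 in organoids (interaction -7.14, SE 0.51, edgeR adjusted p = 1.14e-05). For Pax8 it was 6.38 in tissue and 0.65 in organoids (interaction -5.68, SE 0.74, edgeR adjusted p = 0.000592). For Emx2 it was 1.30 and -0.24 (interaction -1.45, SE 0.33, edgeR adjusted p = 0.0153). With OSE organoids 1 alone the interaction was -7.72 for Sox17, -4.26 for Pax8 and -1.64 for Emx2, each still past the threshold, with the spread taken from the other groups. The Sox3 interaction (edgeR adjusted p = 0.0204) rested on OSE organoids 2, since without it Sox3 was at 0 in every OSE library and the term could not be estimated, and it did not pass without OSE tissue replicate 3 (edgeR adjusted p = 0.0604). Emx2 did not pass with all libraries in a single fit (edgeR adjusted p = 0.126). Pax2 did not pass (interaction 2.33, SE 1.40, edgeR adjusted p = 0.322).

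Between oviductal and OSE organoids directly, none of the 5 factors tested passed by edgeR (1 of them, Pax2, had an unadjusted p below 0.05), in a comparison where 8 of 9257 genes (0.0864%) did and 1060 had an unadjusted p below 0.05 (DESeq2 called 264 genes, Pax2 among them). Pax2 had 39, 14 and 11 counts in oviductal organoids and 0 in both OSE lines, at least 14.6-fold lower in OSE organoids over the group (edgeR adjusted p = 0.164, DESeq2 adjusted p = 0.00436). Sox17 had 188 to 277 CPM in oviductal organoids, below the first OSE line and overlapping the second. The outcome turned on OSE organoids 2. Without that line, where 1 OSE library was left and the spread came from the oviductal organoids alone, 4 factors passed: Pax8 was 2.04 higher on the log2 scale in oviductal organoids (SE 0.33, edgeR adjusted p = 0.00211), Sox17 was 1.62 lower (difference -1.62, SE 0.27, edgeR adjusted p = 0.00231), and Sox3 (at 0 in OSE organoids 1) and Pax2 were higher (edgeR adjusted p = 0.00309 and 0.0187), while 1448 of 9844 genes passed in all. Without OSE organoids 1, again with a lone OSE library, Pax2 alone passed (edgeR adjusted p = 0.0377).

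**Figure D2:**
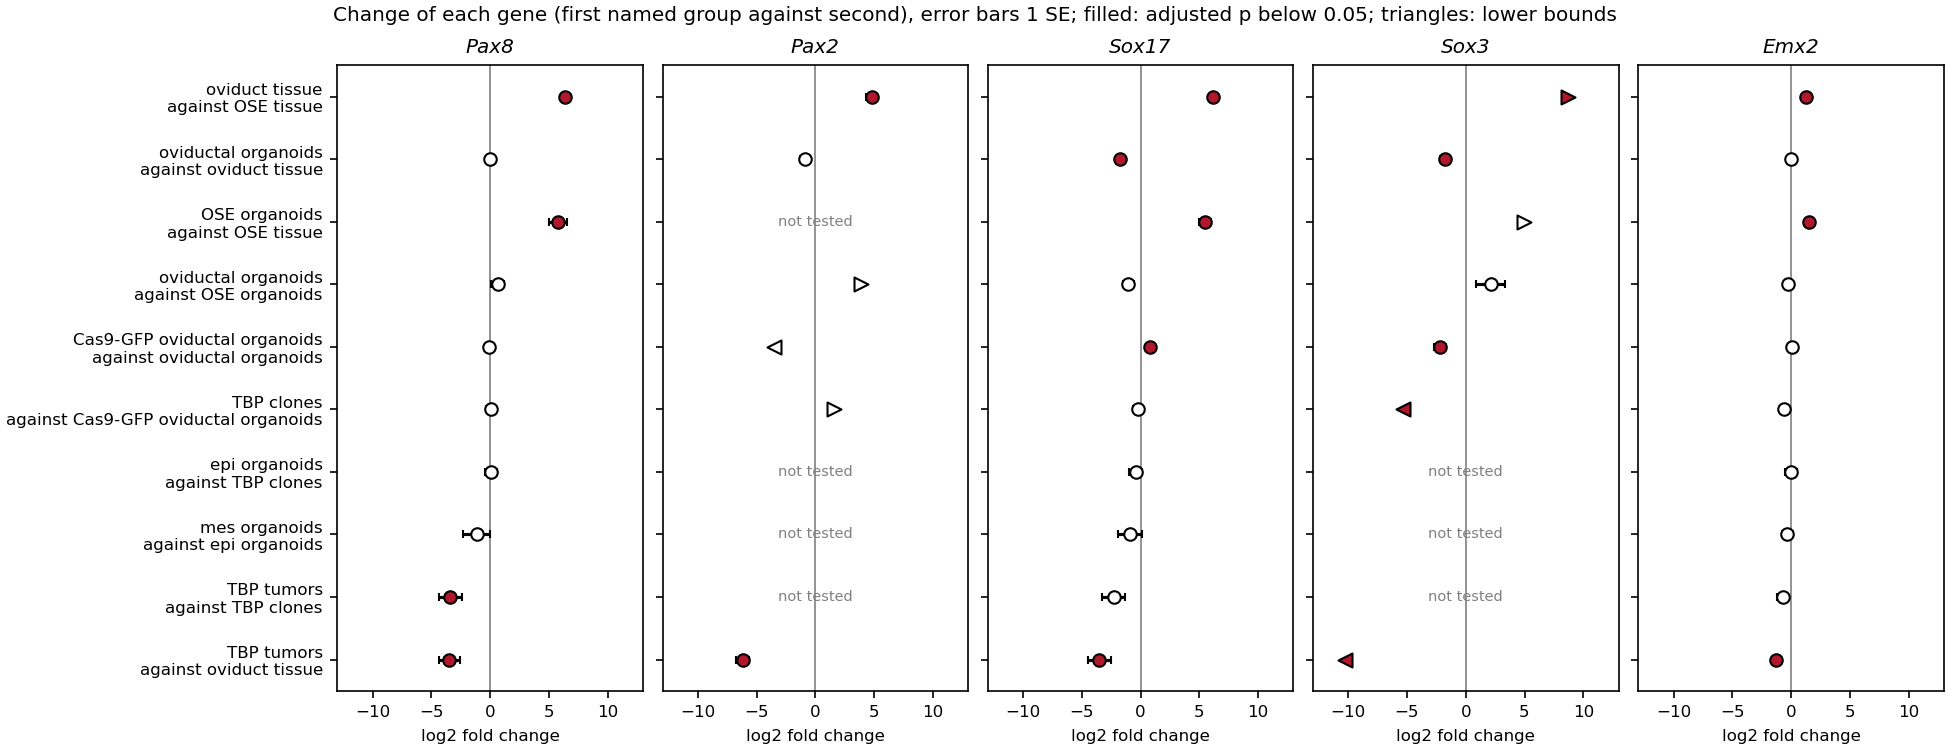
Points give the log2 fold change of the first named group against the second with 1 SE, for 5 genes (panels) in 10 comparisons (rows), filled where the edgeR adjusted p is below 0.05. Triangles are lower bounds against a group with no count, with 3 counts over the group as floor, and open triangles include pairs not tested. The 5 genes are filled in the first row and again, in the other direction, in the last row, where the tumors are set against oviduct tissue.

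Cas9-GFP organoids, the parental cells of the clones, had another balance of the Sox genes than wild-type oviductal organoids. Sox17 was higher and Sox3 lower, and Pax8 and Emx2 did not pass, so 2 of 4 factors tested differed (26.3% of 8323 genes). Sox17 had 437, 314 and 431 CPM in Cas9-GFP organoids, above the 188 to 277 CPM of the wild type (log2 difference 0.82, SE 0.20, edgeR adjusted p = 0.0102). Sox3 had 13.2, 36.4 and 13.9 CPM, below the 49.2 to 164 CPM of the wild type (fell by 2.19 on the log2 scale, SE 0.52, edgeR adjusted p = 0.00865). Pax2 was at 0 counts in all 3 Cas9-GFP libraries, at least 11.5-fold lower than in wild-type organoids over the group. These calls were close to the threshold. Without Cas9-GFP replicate 1, wild-type replicate 2 or wild-type replicate 3, Sox17 no longer passed (edgeR adjusted p = 0.0540 to 0.0557), and without Cas9-GFP replicate 1 Sox3 did not pass either (edgeR adjusted p = 0.0547). Pax8 (153, 141 and 181 CPM) and Emx2 (62.1, 62.5 and 78.1 CPM) overlapped the wild type (167 to 189 and 57 to 71.9 CPM), at log2 differences of -0.13 (SE 0.18) and 0.08 (SE 0.21). Ovgp1 fell with Sox3 and Pax2, from 14844 to 22675 CPM in wild-type organoids to 66.4 to 95.5 CPM in Cas9-GFP organoids (fell by 7.91 on the log2 scale, SE 0.28, edgeR adjusted p = 1.15e-08). Both ciliated markers tested were lower too (the sum of all 6 was 3.47 to 55.6 CPM against 74.5 to 155 CPM), as were 5 of 8 epithelial markers, while 1 was higher (sum 3250 to 3528 against 4705 to 6363 CPM), and their part in the change of the Sox genes was not tested. Per 1000 CPM of epithelial markers, Sox3 was 4.06 to 10.3 CPM in Cas9-GFP organoids and overlapped the wild type (7.74 to 34.9 CPM). Sox17 was 89.0 to 134 CPM against 32.4 to 58.9 CPM on this scale. Pax8 was 39.8 to 55.1 CPM against 28.7 to 36.5 CPM, and Emx2 was 17.7 to 23.8 CPM against 10.6 to 12.4 CPM. On this scale Sox17, Pax8 and Emx2 were thus higher in every Cas9-GFP library. Strain and line cannot be told apart here.

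TBP clones were compared with Cas9-GFP organoids. The clones also went through Nutlin-3a selection and clonal picking, which cannot be told apart here from the targeted mutations. Of the 4 factors tested, Sox3 was lower and the others did not pass (0.817% of 7708 genes differed). Sox3 had no count in any clone and 13 to 21 counts in each Cas9-GFP library, at least 40.0-fold lower in the clones over the group (edgeR adjusted p = 0.0134). In TBP clone 1 a count of 0 says little, but clones 2 and 3 allow at most 1.60 and 0.67 CPM. Leaving out any of the 3 Cas9-GFP libraries, the edgeR adjusted p was 0.0577 to 0.10, and it was 0.106 with all libraries in a single fit. Pax8 had 283, 116 and 137 CPM in the clones, Sox17 had 601, 273 and 182 CPM, and Emx2 had 22.7, 33.7 and 63.8 CPM. The first value of each rests on clone 1, with 25, 53 and 2 counts. For Pax8 and Sox17, clones 2 and 3 lay below all Cas9-GFP libraries (141 to 181 and 314 to 437 CPM). Clone 1 lay above them, so the overlap of these ranges rests on clone 1. Emx2 in clone 3 lay within the Cas9-GFP range (62.1 to 78.1 CPM). The log2 differences were 0.07 (SE 0.39) for Pax8, -0.20 (SE 0.44) for Sox17 and -0.56 (SE 0.38) for Emx2, with edgeR adjusted p-values of 0.976, 0.927 and 0.691. Pax2 was read in clone 3 only, with 23 counts (5.13 CPM).

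Tumor-derived organoids of the epi kind had Pax8 at 179 and 171 CPM, Sox17 at 300 and 224 CPM and Emx2 at 47.6 and 40.8 CPM. All 6 values lay within the range of the clones, but for Pax8, and for Sox17 in T2-epi, only through TBP clone 1. Clones 2 and 3 had 116 and 137 CPM of Pax8 and 273 and 182 CPM of Sox17. None of the 3 factors tested differed by edgeR, nor had any an unadjusted p below 0.05 (4 of 9580 genes, 0.0418%, did, 494 had an unadjusted p below 0.05, and DESeq2 called 25 genes and none of the 3). The log2 differences from the clones were 0.05 (SE 0.51), -0.39 (SE 0.55) and -0.03 (SE 0.51). Sox3 was at 0 in all 4 tumor-derived organoid libraries, and Pax2 had 4, 0, 0 and 3 counts in T1-mes, T2-epi, T3-mes and T4-epi.

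The mes libraries did not behave as a group. T1-mes had 155 CPM of Pax8 and 271 CPM of Sox17, close to the epi libraries, whereas T3-mes had 6.60 CPM of Pax8 and 18.9 CPM of Sox17. Emx2 had the opposite order, with 24.2 CPM in T1-mes and 46.2 CPM in T3-mes. Between mes and epi organoids none of the 3 factors tested passed by edgeR or had an unadjusted p below 0.05 (1.13% of 9775 genes did, 1378 had an unadjusted p below 0.05, and DESeq2 called 534 genes and none of the 3), at log2 differences of -1.13 (SE 1.14) for Pax8, -0.87 (SE 1.03) for Sox17 and -0.32 (SE 0.46) for Emx2. With T1-mes left out, T3-mes differed from the epi libraries by -4.72 (SE 0.54) for Pax8 and -3.80 (SE 0.51) for Sox17 on the log2 scale, and both then passed. T3-mes was singled out after its values were seen, and the spread came from the 2 epi libraries alone, so this describes that library and is no test of mes organoids. The epithelial marker sum was 268 CPM in T3-mes, 2872 CPM in T1-mes and 3492 to 3760 CPM in the epi libraries. Fibroblast markers summed to 8069 CPM in T3-mes and 3465 CPM in T1-mes, against 34.7 and 111 CPM in the epi libraries, and 6 of 8 were higher in mes organoids. Per 1000 CPM of epithelial markers, Pax8 was 24.6 CPM in T3-mes and 45.5 to 53.8 CPM in the other 3, Sox17 was 70.4 CPM in T3-mes and 59.5 to 94.4 CPM in the others, and Emx2 was 173 CPM in T3-mes and 8.42 to 13.6 CPM in the others.

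In the TBP tumors, Pax8 was lower than in the clones and the other 2 factors tested did not pass (31.8% of 10473 genes differed). Pax8 ran from 0 to 39.4 CPM over the 6 tumors (median 12.8), below every clone, with no count in Tumors 2 and 4 (fell by 3.38 on the log2 scale, SE 0.95, edgeR adjusted p = 0.0195). It did not pass without TBP clone 1 (edgeR adjusted p = 0.0558) or without TBP clone 3 (0.0520). Sox17 ran from 6.15 to 227 CPM (median 17.6), and Tumors 1 and 3, at 123 and 227 CPM, stood apart from the other 4, which were at 19.3 CPM or less. Its log2 difference from the clones was -2.29 (SE 0.99, edgeR adjusted p = 0.10, and 0.0250 with all libraries in a single fit), and without Tumor 3 it was -3.27 (SE 0.86, edgeR adjusted p = 0.0143). Emx2 ran from 12.2 to 53.2 CPM (median 25.1) and had counts in all 6 tumors (log2 difference -0.70, SE 0.47, edgeR adjusted p = 0.276). Here the median of all genes was itself 0.16 above 0 on the log2 scale, and 0.29 with RLE size factors. Sox3 had no count in any tumor, which allows up to 0.26 CPM over the group, and Pax2 had 3 counts in all 6.

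The same 2 tumors held the most epithelial markers. Their sum was 2088 CPM in Tumor 1 and 2663 CPM in Tumor 3 and 185 to 386 CPM in the other 4, while fibroblast markers summed to 10669 to 59436 CPM over the 6 tumors, myeloid markers to 486 to 2194 CPM and endothelial markers to 116 to 274 CPM. Sox17 is also an endothelial gene, and 7 of the 10 endothelial markers tested were higher in tumors than in clones, but the part of vessels in its reads was not tested. Per 1000 CPM of epithelial markers, Sox17 was 59.0 CPM in Tumor 1, 85.3 CPM in Tumor 3 and 23.1 to 105 CPM in the other 4, where the clones had 47.2 to 257 CPM. Pax8 was 12.2 CPM in Tumor 1, 14.8 CPM in Tumor 3, 68.4 CPM in Tumor 5, 7.90 CPM in Tumor 6 and 0 in Tumors 2 and 4, where the clones had 29.6 to 121 CPM. On this scale Tumor 5 alone lay in the range of the clones for Pax8, and only through TBP clone 1. That clone set the upper end of both ranges. Clones 2 and 3 had 29.6 and 35.5 CPM of Pax8 and 69.6 and 47.2 CPM of Sox17. Tumor 5 had the most Emx2 (53.2 CPM) with 330 CPM of epithelial markers. Per 1000 CPM of these markers, Emx2 was 10.6 and 12.5 CPM in Tumors 1 and 3, within the 8.58 to 16.6 CPM of the clones. It was 31.6 to 161 CPM on this scale in the other 4 tumors, above every clone.

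**Figure D3:**
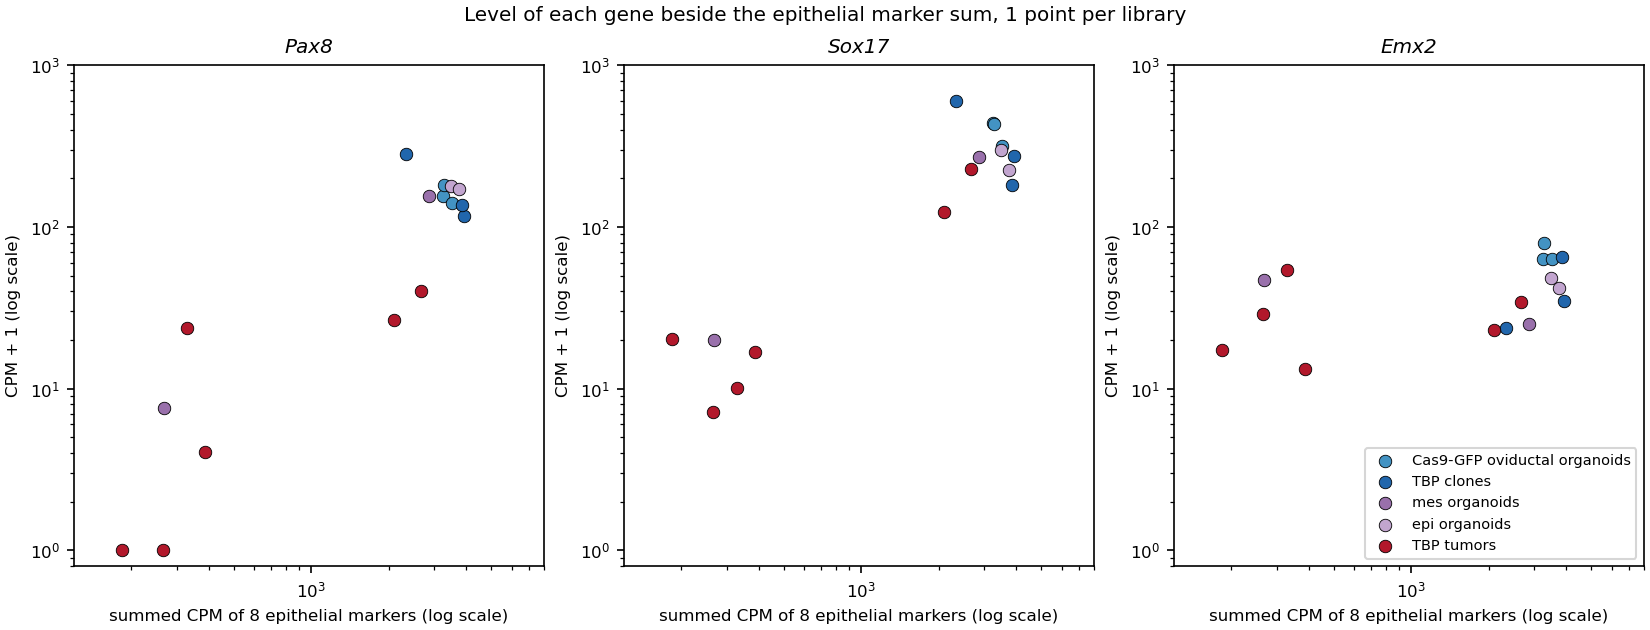
Each point is 1 library, with the summed CPM of 8 epithelial markers on the horizontal axis and CPM + 1 of the gene on the vertical axis, both on log scales, for the Cas9-GFP organoids, TBP clones, tumor-derived organoids and TBP tumors. T3-mes and Tumors 2, 4, 5 and 6 lie at the left, at 386 CPM of epithelial markers or less, with at most 22.6 CPM of Pax8 and 19.3 CPM of Sox17, whereas their Emx2 (12.2 to 53.2 CPM) overlaps that of the libraries at the right.

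Against oviduct tissue all 5 factors tested were lower in the tumors (46.1% of 10827 genes differed). Sox17 fell by 3.50 on the log2 scale (SE 0.98, edgeR adjusted p = 0.0149), Pax8 fell by 3.46 (SE 0.88, edgeR adjusted p = 0.00923) and Emx2 fell by 1.24 (SE 0.39, edgeR adjusted p = 0.0241). Sox3, with 898 counts in oviduct tissue and 0 in tumors, was at least 1209-fold lower. Pax2, with 70 counts and 3, was lower by a ratio of 94.2 (exact 95% counting interval 31.0 to 468). The highest tumor was below the lowest oviduct tissue library for each of the 5 genes. The share of all genes without such overlap was not counted. Emx2 did not pass without oviduct tissue replicate 1 or 3 (edgeR adjusted p = 0.0702 and 0.0852). Per 1000 CPM of epithelial markers, oviduct tissue had 25.4 to 43.4 CPM of Emx2. On this scale Tumors 1 and 3 lay below that range, Tumor 6 within it and Tumors 2, 4 and 5 above it. The other factors tested were still lower in every tumor on this scale. This comparison and the first share the oviduct tissue libraries, and the tumors are also richer than the oviduct in fibroblast and myeloid markers (5 of 8 and 7 of 7 genes tested were higher), whose part in these differences was not tested.

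Ordered by group mean, the factors had different profiles. Sox17 was highest in oviduct tissue (772 ± 47 CPM, above all libraries of the next group) and lowest in OSE tissue (10.6 ± 0.97 CPM), and from OSE organoids (474 ± 329 CPM) down to the tumors (66.8 ± 90.3 CPM) each group overlapped the next. Sox3 fell stepwise without overlap from oviduct tissue (315 ± 66 CPM) to oviductal organoids (89.4 ± 64.7 CPM) and to Cas9-GFP organoids (21.2 ± 13.2 CPM), which overlapped OSE organoids, and was at 0 in the other 5 groups. Pax2 kept the same first 2 groups, at 24.1 ± 3.5 and 12.6 ± 5.6 CPM, and its other 7 groups, at 1.71 CPM or less, overlapped their neighbours. Pax8 ran from 179 ± 20 CPM in oviduct tissue to 158 ± 21 CPM in Cas9-GFP organoids over 5 overlapping groups, and then through OSE and mes organoids to the tumors (15.1 ± 16.5 CPM) and OSE tissue (2.16 ± 1.34 CPM). Emx2 had the flattest order, from 77.8 ± 14.7 CPM in OSE organoids to 27.3 ± 5.8 CPM in OSE tissue, and the sole gap between neighbours was that between oviductal organoids (65.4 ± 7.6 CPM) and epi organoids (44.2 ± 4.9 CPM).

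Across the 26 libraries with at least 500000 counts, Pax8 and Sox17 were the most similar pair of factors (Pearson r of log2 CPM 0.89), followed by Pax2 and Sox3 (0.76) and by Pax8 and Emx2 (0.72). Pax2 and Emx2 were the least similar (0.38). These correlations describe libraries that share group, depth and tissue makeup. Sox3 had no count, and Pax2 few or none, in most of these libraries. Correlations with Sox3 and Pax2 therefore rest largely on the libraries where they were read. Among 11648 genes the profiles most like that of Sox17 were those of Gcnt3 (0.95), a mucin-type glycosyltransferase, Capsl (0.95) and Plekhs1 (0.94). Pax8 was closest to 1600029D21Rik (0.95), Ehf (0.93), an epithelial ETS factor, and Lbp (0.93), the lipopolysaccharide binding protein. Sox3 was closest to Spag6 (0.94) and Pifo (0.93), both genes of cilia, and to Ovgp1 (0.92), and Pax2 to Myb (0.93), a factor of multiciliated cell formation, Morn5 (0.92) and Cldn22 (0.92). The closest profiles to Emx2, those of Pxn, which encodes paxillin, Sh3glb2 and Ephx1, had an r of 0.79.

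Other genes of Müllerian duct formation and patterning (26 in the table) were compared in the same way. Of 13 tested between the tissues, 7 were higher in the oviduct and 1 in OSE tissue, with a median log2 difference of 0.51 against 0.00 for all genes, and 51.2% of all genes were called. Foxa2, a forkhead factor of glands, was at 56.9 CPM in the oviduct and 0 in OSE tissue, Pgr, the progesterone receptor, was at 332 and 4.96 CPM, and Esr1, an estrogen receptor, was at 192 and 8.87 CPM (log2 differences of 6.27 for Pgr and 4.43 for Esr1). Amhr2, the receptor that anti-Müllerian hormone uses to remove the duct in males, was the gene higher in OSE tissue (167 against 3.39 CPM, log2 difference -5.56). In OSE organoids 3 of 15 rose over OSE tissue, Foxa2 (to 241 CPM), Pgr (to 584 CPM) and Wnt5a (to 66.1 CPM), and 3 fell, Amhr2, Fgfr1 and Wnt4, where 33.1% of all genes were called. The lines differed in these genes: OSE organoids 1 and 2 had Foxa2 at 427 and 54.2 CPM, Pgr at 83.6 and 1084 CPM and Wnt5a at 83.6 and 48.5 CPM. With OSE organoids 1 alone, 5 of 16 rose, Foxa2, Pgr and Wnt5a among them, and 5 fell (52.0% of all genes were called). In oviductal organoids 5 of 16 fell below tissue and none rose, where 42.9% of all genes were called, and Fgfr1, Wnt4 and Bmp7 fell most (log2 differences of -5.09, -2.79 and -1.71). The interaction term was called for 5 of 18 (11.7% of all genes), with Foxa2, Pgr and Esr1 falling most and Dach1 rising, and with OSE organoids 1 alone for 6 of 19 (19.1% of all genes), where Foxa2, Pgr and Esr1 fell and Dach1 did not pass. Between the 2 kinds of organoids none of 13 passed by edgeR (3 had an unadjusted p below 0.05 and DESeq2 called 3), and without OSE organoids 2, 4 of 16 did (14.7% of all genes).

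**Figure D4:**
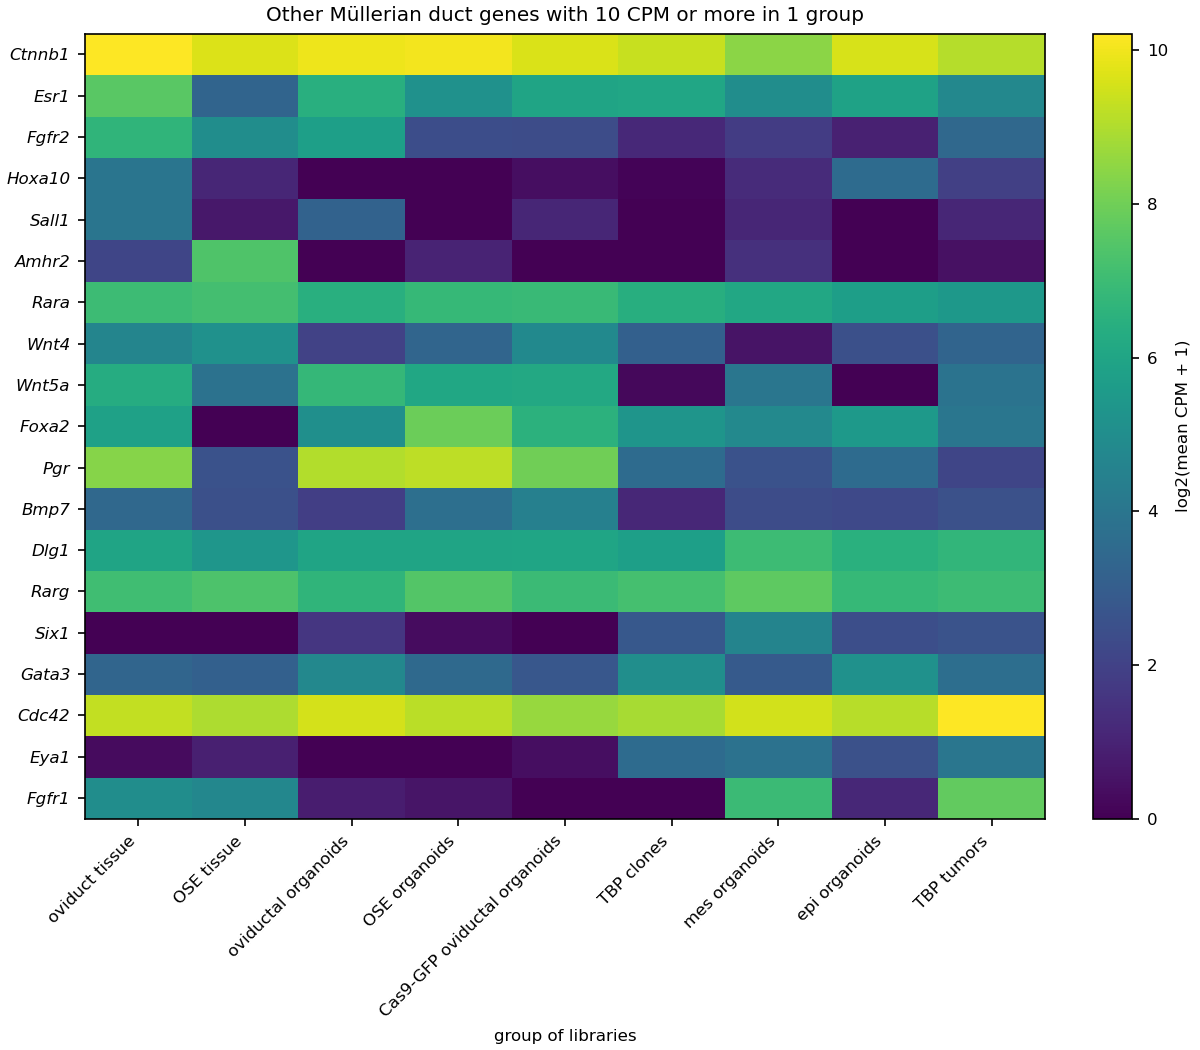
Colour gives log2(mean CPM + 1) of 19 other Müllerian duct genes (rows) that reach 10 CPM in at least 1 of the 9 groups (columns), ordered by the group of their highest mean. Foxa2 and Pgr are dark in OSE tissue (0 and 4.96 CPM) and bright in OSE organoids (241 and 584 CPM), Wnt5a is darkest in epi organoids and TBP clones (0 and 0.18 CPM), and Fgfr1 is bright in mes organoids and tumors (123 and 215 CPM).

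Wnt5a, a secreted WNT ligand, fell with Sox3 in the clones. It was at 71.4 CPM in Cas9-GFP organoids and 0.18 CPM in TBP clones (fell by 8.21 on the log2 scale, SE 0.77, edgeR adjusted p = 0.000981), and Bmp7 fell as well (fell by 3.74, SE 0.70, edgeR adjusted p = 0.0307), so that 2 of 11 duct genes were called (0.817% of all genes). Between Cas9-GFP and wild-type oviductal organoids 5 of 12 were called (26.3% of all genes), with Wnt4, Bmp7 and Foxa2 higher and Fgfr2 and Cdc42 lower. No duct gene of 12 passed between epi organoids and clones by edgeR or DESeq2 (0 had an unadjusted p below 0.05), and Fgfr1 was the 1 of 14 called between mes and epi organoids (log2 difference 6.66, where 1.13% of all genes were called). In tumors 4 of 15 rose over the clones, Fgfr1, Wnt5a and Fgfr2 most, and none fell (31.8% of all genes were called). Against oviduct tissue 4 of 17 rose, Eya1, Fgfr1 and Cdc42 most, and 8 fell, Pgr, Sall1 and Fgfr2 most, with a median of -1.46 against 0.08 for all genes, of which 46.1% were called.

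Of the other Pax, Sox, Emx and LIM homeobox genes (26 in the table), no Pax or Emx gene reached a mean of 10 CPM in any group, Lhx9 did so in OSE tissue alone (22.8 CPM), and 9 Sox genes did. Sox9, a factor of many duct and gland epithelia, followed the pattern of Sox17 in part, with 577 ± 138 CPM in oviduct tissue, 45.4 ± 18.7 CPM in OSE tissue (log2 difference 3.70) and 931 ± 84 CPM in oviductal organoids (log2 difference from tissue 0.70). Sox13 was at 149 ± 5 CPM in the oviduct and 10.7 ± 6.3 CPM in OSE tissue (log2 difference 3.62). Sox4, Sox12 and Lhx9 were higher in OSE tissue, so 2 of 7 paralogs tested were higher in the oviduct and 3 lower (51.2% of all genes were called). In oviductal organoids Sox4 and Sox9 rose and Sox6, Sox5 and Sox13 fell among 7 tested, and in OSE organoids Sox9 and Sox13 rose and Sox18, Sox6, Lhx9 and Sox12 fell among 8 (42.9% and 33.1% of all genes were called). Sox9 was at 94.2 and 2109 CPM in OSE organoids 1 and 2. With OSE organoids 1 alone, Sox9 was 1.13 higher than in tissue on the log2 scale (SE 0.28) and Sox13 was 1.86 higher (SE 0.36). Pax9, not tested with both lines, was 7.47 higher in that fit (SE 1.34). Between the 2 kinds of organoids none of 7 passed by edgeR or DESeq2 (0 had an unadjusted p below 0.05). Without OSE organoids 2, which leaves 1 OSE library, Pax9 was 7.66 lower in oviductal organoids on the log2 scale (SE 1.60). In that fit Sox9 was 3.32 higher (SE 0.31) and Sox12 was 2.68 higher (SE 0.80). The interaction term was called for 4 of 11, Sox21, Sox9 and Sox13 falling and Sox12 rising, and with OSE organoids 1 alone for 4 of 13, Sox9 no longer among them. Sox9, Sox12 and Sox13 were the 3 of 6 lower in Cas9-GFP organoids (26.3% of all genes were called).

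Sox7 and Sox18, the relatives of Sox17 in the SoxF group and both known from endothelium, had other levels. Sox18 was at 0 in TBP clones, OSE organoids and tumor-derived organoids and at 15.3 ± 7.2 CPM in the tumors, whereas Sox7 ran from 1.64 ± 1.42 CPM in OSE tissue to 19.5 ± 18.2 CPM in tumors. Sox18 and Sox11 were the 2 of 6 paralogs that rose from clones to tumors (31.8% of all genes were called). Against oviduct tissue, Sox11 and Sox4 rose in tumors and Sox12, Sox13 and Sox5 fell among 10 tested (46.1% of all genes were called). None of 4 tested between clones and Cas9-GFP organoids, nor of 4 between epi organoids and clones, passed by edgeR or DESeq2 (0 had an unadjusted p below 0.05). Between mes and epi organoids none of 5 passed by edgeR, 1 had an unadjusted p below 0.05 and DESeq2 called 1.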

How the data were processed

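RNA of 27 libraries, in 11 GEO samples, was read by CEL-Seq2 on a NextSeq500. The authors aligned the reads to GRCm38 with BWA, kept uniquely mapped reads of the right direction and deposited raw counts of reads per gene, without collapsing unique molecular identifiers, and amplified copies are therefore counted. The submitters' processing notes also name DESeq2 1.18.0. Groups come from the sample labels. A spike-in entry (1 count) was left out. Each comparison used edgeR 4.0.16 in R 4.3.3 and its quasi-likelihood test (TMM, filterByExpr on the libraries compared, Benjamini-Hochberg over all genes tested, threshold 0.05). The interaction term used the 4 wild-type groups together. Replicates of a group differed by more than counting error in all 33 pairs (lowest chi-square per gene 2.53). Total counts were 82239 to 4531767. Where nothing was read, 3 counts were taken as the upper limit, and groups with 1 to 3 counts are given as ratios with exact 95% intervals.

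The 6 genes and the lists (other Müllerian duct genes, paralogs, and markers of secretory, epithelial, ciliated, endothelial, fibroblast, smooth muscle, OSE and mesothelial, granulosa and steroidogenic, and myeloid cells) were chosen with earlier results of these data known. Of the lists, the called genes with the 3 largest changes in each direction are named, with paralogs at 10 CPM or more in a group, and for each of 5 factors the 3 genes with the most similar log2 CPM (prior count 2). Secretory markers other than Pax8 (4 genes) summed to 74831 to 119214 CPM in oviduct tissue and 143 to 275 CPM in OSE tissue. The alternatives were DESeq2 1.42.0, RLE size factors, no filter on low counts, all libraries in a single fit, leaving out each library and, for mes against epi organoids, a replicate block. The lists without OSE organoids 2, and Lhx1 without the filter, were added after seeing the data. The fits of oviduct against OSE tissue and of tumors against clones were tested on simulated data. These had the same spread for every gene and changes in well-read genes only. Fits with a lone library, the interaction and changes in genes near the floor were not simulated. Figures were drawn with matplotlib 3.10.9. Imaging, drug screens and an OSE organoid line that the authors removed as contaminated were not analysed here. Some genes, members of the Müllerian duct list among them, are not reported here and were left out of that list's counts.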

Additional observations from a re-analysis of the deposited data

Results flagged for a closer look

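The difference between oviduct and OSE was not the same in organoids as in tissue for 4 factors by the interaction term of edgeR, on the log2 scale -5.68 for Pax8, -7.14 for Sox17, -9.61 for Sox3 and -1.45 for Emx2. The Sox3 value depends on the prior count, as Sox3 is at 0 in OSE tissue, and could not be estimated without OSE organoids 2. Single libraries far from their group were looked for by gap over range in the 6 tumors, and the largest was 0.484 (Emx2 in Tumor 5), below the critical value of 0.625. This test can miss a pair of libraries that stand apart together, as Tumors 1 and 3 did for Sox17, where the ratio was 0.470.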

How the results depend on the processing

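DESeq2, RLE size factors and no filter on low counts left the number of factors called within 1.5 times the edgeR count in every comparison but oviductal against OSE organoids, where DESeq2 and no filter called 1 factor (Pax2) and edgeR 0. For tumors against oviduct tissue DESeq2 called 4 factors in place of 5. It gave no adjusted p for Sox17 there (log2 difference -3.58), so that call rests on edgeR. With all libraries in a single fit the number called was 0 in place of 2 for oviductal organoids against oviduct tissue, 1 in place of 0 for oviductal against OSE organoids, 1 in place of 2 for Cas9-GFP against oviductal organoids, 0 in place of 1 for TBP clones against Cas9-GFP organoids and 3 in place of 1 for tumors against clones. Leaving out 1 library at a time, the number called was 0 to 4 between oviductal and OSE organoids, 1 to 3 for Cas9-GFP organoids, 0 to 1 for the clones, 0 to 2 between mes and epi organoids and 0 to 2 for tumors against clones. Each cause was not tested, beyond the libraries named in the report. With the tumor pair as a replicate block, mes against epi organoids called 0 factors (Pax8 -2.23, edgeR adjusted p = 0.427), and 240 genes in place of 110. With 2 pairs, the block changed no call of a factor.

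Differences that changed sign had not passed, and passed in no fit where they did so. Without the filter, Pax8 and Emx2 were at 0.040 and 0.045 (log2) for oviductal organoids against tissue, and by DESeq2 Emx2 was at 0.016 for epi organoids against clones. With 1 library left out, the range for oviductal organoids against tissue was -0.085 to 0.076 for Pax8 and -0.092 to 0.11 for Emx2, and for oviductal against OSE organoids it was -0.035 to 2.04 for Pax8. It was -0.035 to 0.14 for Emx2 in Cas9-GFP organoids, and in the clones -0.35 to 0.33 for Pax8 and -0.83 to 0.13 for Sox17. For epi organoids against clones it was -0.22 to 0.47 for Pax8, -0.74 to 0.20 for Sox17 and -0.24 to 0.51 for Emx2, and for mes against epi organoids -3.80 to 0.031 for Sox17 and -0.89 to 0.055 for Emx2.

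Counts of all genes called moved by more than 1.5 times in these fits. With all libraries in a single fit they were 2970 in place of 4495 between the tissues, 251 in place of 8 between the organoids, 1114 in place of 2189 for Cas9-GFP organoids, 555 in place of 110 for mes organoids, 5251 in place of 3333 for tumors against clones and 671 in place of 1338 for the interaction. DESeq2 called 264 between the organoids, 101 in place of 63 for the clones, 25 in place of 4 for epi organoids and 534 for mes organoids, and without the filter these were 116, 372, 80 and 283. With 1 library left out, calls ran from 1768 to 5750 (3387 in full) for OSE organoids against tissue, from 0 to 1448 between the organoids, from 3 to 208 for the clones, from 0 to 64 for epi organoids, from 0 to 1458 for mes organoids and from 828 to 2325 for the interaction, and were 1450 for Cas9-GFP organoids without Cas9-GFP replicate 1. Depth limits Pax2, Lhx1 and all values of TBP clone 1.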
